A study of Homo sapiens with 27 samples.

Results

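T47D breast cancer cells in which TLE3 had been silenced were compared directly with T47D cells in which FOXA1 had been silenced. The comparison used the 6 libraries of these groups out of 27 in the series, 3 libraries per group, and left the control libraries out of the fit. T47D is a luminal, estrogen receptor positive human breast cancer line. For silencing, the cells received by reverse transfection a SMARTPOOL, a mixture of siRNAs against 1 gene, directed at TLE3 (siTLE3) or at FOXA1 (siFOXA1), or else non-targeting siRNA (siNS), per the labels. RNA was taken 48 h later, per the series' design text. The same 3 groups exist for MDA-MB-453 and SKBR3 cells, and each group holds 3 libraries. The libraries are bulk samples, so fewer cells of a type and less RNA per cell cannot be told apart. The titles number the samples of a group as biological replicates without saying whether they were separate cultures, so p-values measure only the spread between these samples. Library numbers below are those in the authors' column names, which are 1, 3 and 4 for siTLE3, 1, 2 and 3 for siFOXA1, and 2, 3 and 4 for siNS.

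TLE3 belongs to the Groucho family of corepressors, which do not bind DNA themselves and are brought to genes by sequence-specific factors. FOXA1 is a pioneer factor of the forkhead family that opens chromatin in luminal breast epithelium for the estrogen receptor. Forkhead factors of the FOXA group can bring Groucho corepressors to DNA.

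The 6 libraries held 18646841 to 26208135 counted reads each. Of 27421 genes listed with siTLE3 counts and 25452 with siFOXA1 counts, 23693 were in both lists and entered the comparison. The 3 libraries of a group did not lie equally close. Over genes, chi-square per degree of freedom was 5.92 between siTLE3 1 and 3, but 15.8 and 11.2 for the pairs that held siTLE3 4. It was 5.46 between siFOXA1 1 and 2, but 18.4 and 16.6 for the pairs that held siFOXA1 3. Counts were therefore also made without siTLE3 4 and siFOXA1 3, an alternative added after seeing the data. Luminal epithelial markers were present in all 6 libraries, with KRT8, KRT18 and KRT19 among them. PTPRC, CD3E, CD68, PECAM1 and TEK, which mark leukocytes and endothelium, were not in both T47D tables. Of the leukocyte list 4 of 7 genes were in both tables, with a summed level of 1.89 to 2.61 CPM (reads of the gene scaled to library size) in siTLE3 libraries and 0.684 to 1.69 CPM in siFOXA1 libraries. Of the endothelial list 3 of 5 were in both, with sums of 0.423 to 0.966 and 0.141 to 0.278 CPM in the siTLE3 and siFOXA1 libraries. Of the fibroblast list 5 of 7 were in both, with sums of 77.0 to 84.3 CPM in siTLE3 libraries and 48.3 to 64.2 CPM in siFOXA1 libraries, of which the collagen gene COL1A1 made up most, and DCN, a defining fibroblast gene, stayed at or below 0.0941 CPM. LUM, of the same list, was at 8.55 to 8.93 CPM in siTLE3 libraries and 1.85 to 2.35 CPM in siFOXA1 libraries. Of 4 fibroblast genes tested 3 were higher under siTLE3 and 1 lower. KRT5, a basal keratin, stayed at or below 0.518 CPM. The basal or myoepithelial list summed to 9.88 to 13.1 CPM in siTLE3 libraries and 32.4 to 35.6 CPM in siFOXA1 libraries. Of its 5 genes tested 4 were lower under siTLE3 and 1 higher. Over all genes 22.5% were higher and 21.8% lower. The part of these transcripts in the results was not tested.

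Both targets were low in their own group. TLE3 (chr15:70340129-70390515 on hg19, minus strand) was at 38.5, 36.2 and 40.8 CPM in siTLE3 libraries 1, 3 and 4, against 159, 166 and 144 CPM in siFOXA1 libraries 1, 2 and 3. The siNS libraries had 134, 140 and 128 CPM. The groups did not overlap, and the log2 fold change of siTLE3 over siFOXA1 was -2.02 (SE 0.09, edgeR adjusted p = 7.58e-09). FOXA1 (chr14:38059189-38069245 on hg19, minus strand) was at 564, 595 and 534 CPM in siTLE3 libraries, against 86.3, 90.5 and 77.1 CPM in siFOXA1 libraries and 380, 380 and 392 CPM in siNS libraries. Its log2 fold change was 2.74 (SE 0.09, adjusted p = 1.43e-09). FOXA1 was thus also higher in siTLE3 than in siNS libraries, by 0.56 on the log2 scale (SE 0.07, adjusted p = 7.13e-06). TLE3 was higher in siFOXA1 than in siNS libraries by 0.22 (SE 0.07, adjusted p = 0.0212).

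Of 16053 genes tested, 7119 differed between siTLE3 and siFOXA1 at an edgeR adjusted p below 0.05, which is 44.3% of all. Of these 3617 were higher under siTLE3 (22.5% of genes tested) and 3502 were lower (21.8%). The median log2 fold change over all genes was 0.02. At least 2-fold differences were fewer and less even, with 1202 genes higher (7.49%) and 665 lower (4.14%). In 8606 genes (53.6%) the 3 siTLE3 and the 3 siFOXA1 libraries did not overlap, and 6937 of these passed the test. Without siTLE3 4 and siFOXA1 3 the test called 7658 genes. Gene lists are described below by their counts, to be read beside the 22.5% higher and 21.8% lower over all genes. Some members outside the naming rule are named, a choice made after their values were seen.

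**Figure D1:**
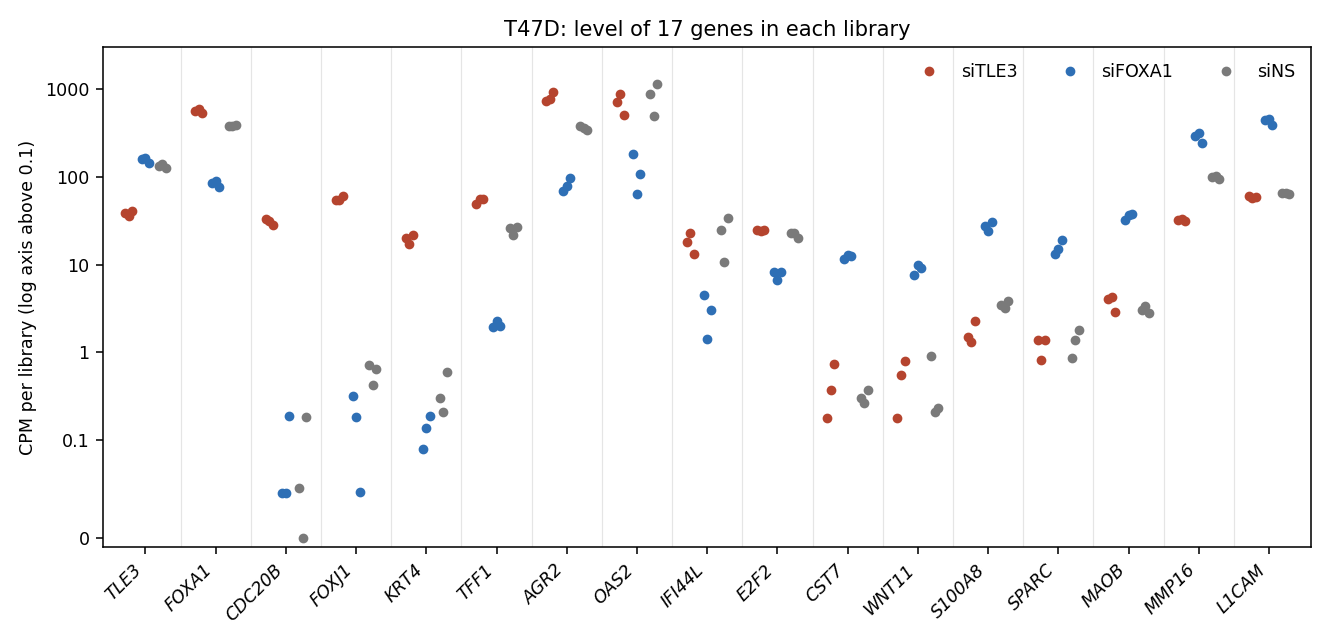
Level of 17 genes in each T47D library in CPM (log axis above 0.1 CPM, linear below), with 3 points per gene for siTLE3 (red), siFOXA1 (blue) and siNS (grey). The siTLE3 and siFOXA1 points do not overlap for any gene shown, while siNS lies closer to siFOXA1 for CDC20B, FOXJ1 and KRT4, closer to siTLE3 for CST7, SPARC, MAOB and L1CAM, and between the groups for TFF1, AGR2 and MMP16.

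Among protein-coding genes with a mean of at least 5 CPM in the higher group, the largest differences upward under siTLE3 were in genes of the multiciliated cell program and of luminal secretion. CDC20B, a gene of multiciliated cells that hosts microRNAs, was at 33.2, 31.6 and 28.7 CPM in siTLE3 libraries, against 0.0456, 0.0463 and 0.188 CPM in siFOXA1 libraries. The log2 fold change was 8.31 (SE 0.23, adjusted p = 5.95e-10). FOXJ1, the forkhead factor that drives motile cilia genes, was at 54.8, 54.6 and 60.7 CPM against 0.319, 0.185 and 0.047 CPM in the siTLE3 and siFOXA1 libraries, a log2 fold change of 8.22 (SE 0.21). In siNS libraries both genes stayed below 1 CPM, at 0 to 0.186 CPM for CDC20B and 0.421 to 0.713 CPM for FOXJ1. KRT4, a keratin of stratified mucosa, was at 17.4 to 21.8 CPM in siTLE3 libraries and 0.0912 to 0.188 CPM in siFOXA1 libraries, a log2 fold change of 7.10 (SE 0.23).

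CREB3L1, a membrane-bound transcription factor of secretory cells, had 28.6 to 33.1 CPM in siTLE3 libraries and 1.20 to 1.60 CPM in siFOXA1 libraries, a log2 fold change of 4.47 (SE 0.14). The amino acid enzymes TAT and MAT1A and the hormone precursor TRH also ranked among the 10 largest, with log2 fold changes of 4.36 (SE 0.31), 4.33 (SE 0.21) and 4.28 (SE 0.28). AL050303.1, at 31.3 to 33.1 CPM under siTLE3 and 0.0912 to 0.235 CPM under siFOXA1, had a log2 fold change of 7.52 (SE 0.19).

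The genes lowest under siTLE3 relative to siFOXA1 included 6 of 10 that stood high in siFOXA1 libraries and low in both other groups. CST7, an inhibitor of cysteine proteases, was at 0.177, 0.371 and 0.74 CPM in siTLE3 libraries, against 11.5, 12.8 and 12.7 CPM in siFOXA1 libraries and 0.263 to 0.373 CPM in siNS libraries. Its log2 fold change was -4.89 (SE 0.27, adjusted p = 6.37e-08). WNT11, a secreted Wnt ligand, was at 0.177 to 0.793 CPM in siTLE3 libraries and 7.62 to 9.95 CPM in siFOXA1 libraries (log2 fold change -4.14, SE 0.31). SPARC, a matrix glycoprotein, was at 0.817 to 1.37 CPM against 13.2 to 19.3 CPM in the siTLE3 and siFOXA1 libraries (-3.75, SE 0.22). MAOB, a mitochondrial amine oxidase, was at 2.91 to 4.23 CPM against 32.7 to 38.2 CPM (-3.25, SE 0.13). S100A14, a calcium-binding protein, and AFAP1L2, an actin-associated adaptor, had log2 fold changes of -3.81 (SE 0.24) and -3.57 (SE 0.22). Over siNS, siTLE3 passed the edgeR test for none of WNT11, SPARC, MAOB, S100A14 and AFAP1L2, with adjusted p of 0.855, 0.671, 0.28, 0.855 and 0.97, and CST7 did not pass the low-count filter there.

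The other 4 lay on opposite sides of the control. ABP1, the diamine oxidase gene, was at 1.37, 2.01 and 1.59 CPM in siTLE3 libraries and 32.9, 31.7 and 30.1 CPM in siFOXA1 libraries, with 4.28 to 5.84 CPM in siNS libraries. The direct log2 fold change was -4.23 (SE 0.14, adjusted p = 1.43e-09). S100A8, a calgranulin of inflamed and cornifying epithelium, was at 1.30 to 2.27 CPM against 24.4 to 30.5 CPM (-4.06, SE 0.17), with -1.07 (SE 0.25) for siTLE3 over siNS and 2.97 (SE 0.13) for siFOXA1 over siNS. CASP14, the caspase of keratinocyte cornification, and CRH, a stress hormone precursor, had direct log2 fold changes of -4.01 (SE 0.35) and -3.27 (SE 0.36).

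Among genes with a mean of at least 100 CPM the order was different. PEG10, a retrotransposon-derived imprinted gene, was at 1770, 1750 and 1600 CPM in siTLE3 libraries and 298, 332 and 265 CPM in siFOXA1 libraries, with 2380 to 2700 CPM in siNS libraries. Its direct log2 fold change was 2.52 (SE 0.10, adjusted p = 4.38e-09). LAMP3, a lysosomal membrane protein, was at 266, 335 and 234 CPM against 61.8, 27.1 and 44.3 CPM (2.65, SE 0.23). In the other direction L1CAM, a neural cell adhesion molecule, was at 57.2 to 61.2 CPM in siTLE3 libraries and 393 to 454 CPM in siFOXA1 libraries (-2.87, SE 0.09), with 64.1 to 66.4 CPM in siNS libraries. MMP16, a membrane-anchored matrix protease, was at 31.7 to 33.3 CPM against 246 to 321 CPM (-3.14, SE 0.11), with 95.4 to 102 CPM in siNS libraries. DEGS2, a sphingolipid desaturase, was at 160, 165 and 178 CPM in siTLE3 libraries and 986, 1010 and 1190 CPM in siFOXA1 libraries (-2.66, SE 0.09). FJX1 and CAMK2N1, an inhibitor of calcium/calmodulin-dependent kinase, had log2 fold changes of -2.30 (SE 0.08) and -2.10 (SE 0.11).

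The non-coding genes named by the same size rule need care, since the strand setting of the counting is not given in the sources used here. RP11-206M11.7, an antisense gene that overlaps TM4SF18, was at 138, 165 and 203 CPM in siTLE3 libraries and 10.9, 11 and 11.5 CPM in siFOXA1 libraries (log2 fold change 3.92, SE 0.14). TM4SF18 itself differed by 4.21 on the log2 scale. RP11-483P21.2, antisense to the cadherin gene CDH13, differed by 5.47 (SE 0.28), and CDH13 by 2.94 (SE 0.34). Without strand, reads of such pairs cannot be told apart. AC005077.14, a pseudogene that may share reads with its parent, differed by 4.15 (SE 0.18). On the other side stood RP11-398B16.2 (-2.56, SE 0.17), which lies within ADARB2, MIR205HG (-1.91, SE 0.21), the host gene of a microRNA of basal epithelium, and RP11-312O7.2 (-1.75, SE 0.27).

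Secretory and luminal genes with the largest differences lay above the control under siTLE3 and below it under siFOXA1. TFF1, the estrogen-induced trefoil peptide, was at 49.7, 56.4 and 56.3 CPM in siTLE3 libraries, against 1.96, 2.31 and 1.98 CPM in siFOXA1 libraries and 25.9, 21.6 and 26.8 CPM in siNS libraries. The direct log2 fold change was 4.70 (SE 0.12, adjusted p = 3.43e-10), with 1.13 (SE 0.09) over siNS under siTLE3 and -3.57 (SE 0.14) over siNS under siFOXA1. Both comparisons with siNS use the same 3 control libraries. AGR2, a disulfide isomerase of secretory epithelium, was at 730, 765 and 925 CPM against 68.4, 79.7 and 96.6 CPM (3.31, SE 0.14), with 344 to 385 CPM in siNS libraries. Its neighbour AGR3 on chromosome 7 and TFF3, which lies near TFF1 on chromosome 21, had log2 fold changes of 2.65 (SE 0.14) and 2.51 (SE 0.13). Of 17 trefoil, mucin and secreted mucosal genes tested, 9 were higher, 2 were lower and 6 were not called, with a median log2 fold change of 0.97 beside 0.02 over all genes. The 2 lower genes, named after their values were seen, were LTF (-1.64) and CLU (-0.88).

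Luminal identity genes were more evenly split, since 18 of 40 tested were higher, 13 were lower and 9 were not called (median 0.13). FOXA1, the target of siFOXA1, is counted among the higher ones. The higher ones included MYB, a luminal proliferation factor (log2 fold change 2.65, SE 0.09), and XBP1, the secretory cell factor, which was at 1890, 2000 and 2010 CPM in siTLE3 libraries and 576, 602 and 717 CPM in siFOXA1 libraries (1.64, SE 0.09). The lower ones included KRT8 (-0.75, SE 0.10), KRT18 (-0.71, SE 0.09) and CDH1 (-0.47, SE 0.08). The hg19 spans of KRT8 and KRT18 overlap on opposite strands, so without strand reads of the shared stretch cannot be told apart. Of 47 estrogen response genes 21 were higher and 18 lower. BCAS1, amplified in some breast cancers, was at 51.3 to 56.7 CPM against 2.54 to 4.2 CPM in the siTLE3 and siFOXA1 libraries (4.08, SE 0.14), and HEY2, a Notch target, at 44.0 to 46.9 against 4.79 to 7.12 CPM (2.97, SE 0.13). EGR3, an early estrogen target, ran the other way, at 1.71 to 2.66 CPM in siTLE3 libraries and 14.9 to 16.0 CPM in siFOXA1 libraries (-2.92, SE 0.17), with siNS at 14.0 to 15.8 CPM. Of 20 androgen response and apocrine genes 14 were higher, 1 was lower and 5 were not called (median 0.86). UGT2B15, a steroid glucuronidating enzyme, was at 2.97, 3.75 and 4.17 CPM in siTLE3 libraries and 0.137, 0.0925 and 0 CPM in siFOXA1 libraries. UGT2B11, of the same family, was at 1.95 to 3.22 CPM and 0 to 0.0456 CPM in the siTLE3 and siFOXA1 libraries, too few reads for a fold change. The forkhead words TGTTTAC and TATTTAC, searched on both strands, were present in 4 of 29 matched luminal promoters (13.8%), 2 of 21 of the trefoil and mucin list (9.52%), 2 of 30 of the estrogen response list (6.67%), 3 of 22 of the cornified envelope list (13.6%) and 1652 of all 27305 RefSeq promoters (6.05%).

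**Figure D2:**
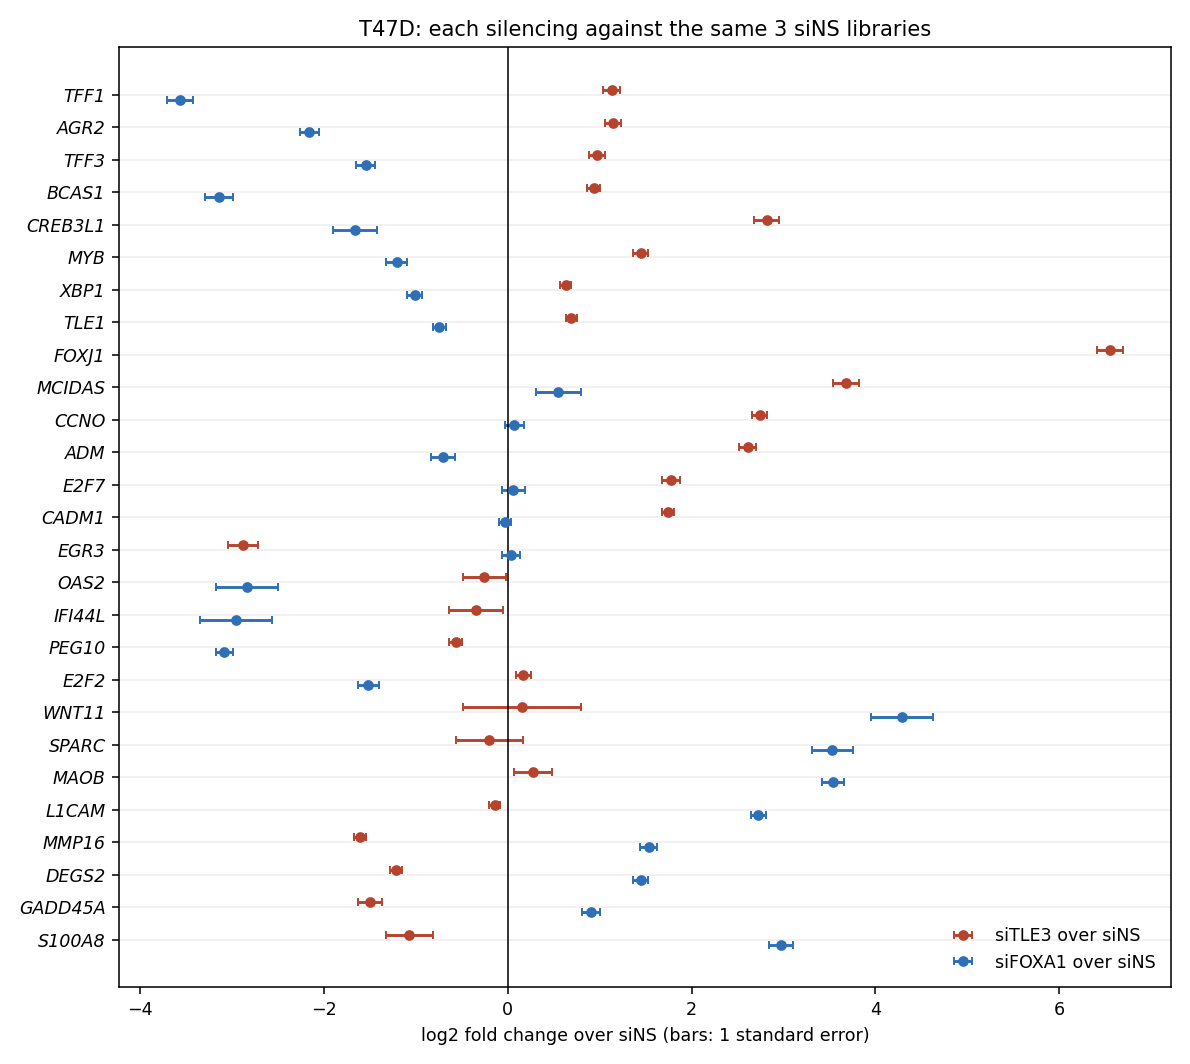
Log2 fold change over siNS of 27 named genes in T47D, for siTLE3 (red) and siFOXA1 (blue), with bars of 1 SE. Both colours share the same 3 siNS libraries, FOXJ1 has no siFOXA1 point because it did not pass the low-count filter there, and TFF1 to TLE1 lie right of 0 under siTLE3 and left of 0 under siFOXA1, while MMP16 to S100A8 lie on the other sides.

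The receptor genes differed less than 2-fold. ESR1, the estrogen receptor, was at 264, 267 and 238 CPM in siTLE3 libraries and 166, 164 and 132 CPM in siFOXA1 libraries, with 122 to 137 CPM in siNS libraries (direct log2 fold change 0.73, SE 0.10, adjusted p = 8.48e-05). PGR, the progesterone receptor, was at 758, 714 and 584 CPM against 489, 528 and 393 CPM (0.54, SE 0.12), and both groups lay above the 182 to 204 CPM of siNS libraries. ERBB2 was at 188 to 200 CPM in siTLE3 libraries and 251 to 268 CPM in siFOXA1 libraries (-0.44, SE 0.07). GATA3, a luminal partner of FOXA1, differed by 0.20 (SE 0.07, adjusted p = 0.038), a call that was lost when any 1 of the 6 libraries was left out.

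Other corepressors of the Groucho family differed too. TLE1 was at 136, 134 and 131 CPM in siTLE3 libraries, against 49.8, 50.5 and 48.4 CPM in siFOXA1 libraries and 82.1 to 83.9 CPM in siNS libraries. Its log2 fold change was 1.43 (SE 0.07, adjusted p = 2.66e-08), with 0.69 (SE 0.06) over siNS under siTLE3 and -0.74 (SE 0.07) under siFOXA1. AES, the short family member without the WD-repeat domain, was at 76.9 to 88.0 CPM against 98.6 to 112 CPM (-0.37, SE 0.08), and both groups lay below the 155 to 160 CPM of siNS libraries. TLE2 (0.34, SE 0.11) and TLE6 (1.18, SE 0.26) were also higher under siTLE3. The TLE2 call was lost with DESeq2 and without siTLE3 3 or siFOXA1 1. Among forkhead genes FOXP1 was at 29.1 to 30.4 CPM under siTLE3 and 5.88 to 8.47 CPM under siFOXA1 (2.05, SE 0.13).

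Regulators of multiciliated cells were higher under siTLE3 in 10 of 17 tested, lower in 3 and not called in 4 (median log2 fold change 0.75). MCIDAS and CCNO, which start the amplification of centrioles, lie close to each other and to CDC20B on chromosome 5, all on the minus strand, at hg19 chr5:54515442-54523143 and chr5:54526980-54529508, with CDC20B at chr5:54408799-54469005. MCIDAS was at 20.9, 22.7 and 19.6 CPM in siTLE3 libraries, against 2.74, 2.41 and 2.07 CPM in siFOXA1 libraries and 1.47 to 1.77 CPM in siNS libraries (direct 3.13, SE 0.14). CCNO was at 135, 128 and 137 CPM against 21.7, 20.5 and 20.9 CPM, with 17.5 to 21.9 CPM in siNS libraries (2.67, SE 0.08, adjusted p = 8.33e-10). For both genes the siFOXA1 difference from siNS did not pass the test, at 0.55 (SE 0.24, adjusted p = 0.0749) and 0.07 (SE 0.10, adjusted p = 0.568). The 3 lower genes, named after their values were seen, were IFT88 (-0.58), CCDC78 (-0.57) and E2F5 (-0.37).

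Structural genes of the motile axoneme were higher in 19 of 31 tested, lower in 2 (SPAG16 and RSPH1) and not called in 10 (median 0.81). Of the 50 genes listed, 35 were in both tables. DNAAF1, an assembly factor of axonemal dynein, was at 5.45, 5.61 and 5.81 CPM in siTLE3 libraries and 1.78, 1.94 and 1.13 CPM in siFOXA1 libraries (1.79, SE 0.22, adjusted p = 3.8e-05). LRRC6, another such factor, had a log2 fold change of 1.44 (SE 0.20), and RSPH4A, a radial spoke protein, 1.31 (SE 0.31). MNS1, a filament protein of sperm and cilia, was at 9.28 to 9.99 CPM against 3.52 to 4.33 CPM (1.33, SE 0.14), but siNS libraries had 9.62 to 11.2 CPM, so for this gene siTLE3 lay at the level of the control.

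Promoters of ciliary genes often hold an X-box, the binding motif of RFX factors. In RefSeq promoters of 250 bases before to 50 bases after the start (GRCh38.p14), the X-box word GTTGCCA, searched on both strands, was present in 14 of 32 matched axoneme genes (43.8%), in 4 of 18 matched multiciliated cell regulators (22.2%) and in 1128 of all 27305 promoters (4.13%). A match is a description of letters and not a site. Promoters of named members that hold it are shown, with the word in capitals on either strand (TGGCAAC is its reverse complement). They are MCIDAS at chr5:55227266-55227565 on the minus strand, MNS1 at chr15:56465088-56465387 on the minus strand and RSPH4A at chr6:116616229-116616528 on the plus strand.
MCIDAS: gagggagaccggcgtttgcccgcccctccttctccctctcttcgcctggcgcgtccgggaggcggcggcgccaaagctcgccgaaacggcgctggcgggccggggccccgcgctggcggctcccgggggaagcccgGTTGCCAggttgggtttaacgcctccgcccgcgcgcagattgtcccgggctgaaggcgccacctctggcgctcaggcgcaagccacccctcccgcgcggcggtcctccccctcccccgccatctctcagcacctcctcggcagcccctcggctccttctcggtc
MNS1: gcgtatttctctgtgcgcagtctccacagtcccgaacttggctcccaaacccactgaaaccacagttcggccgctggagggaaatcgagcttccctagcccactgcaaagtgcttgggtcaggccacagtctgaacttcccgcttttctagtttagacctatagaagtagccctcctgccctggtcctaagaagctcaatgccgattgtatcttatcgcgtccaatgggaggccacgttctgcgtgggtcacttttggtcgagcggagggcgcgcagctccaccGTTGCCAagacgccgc
RSPH4A: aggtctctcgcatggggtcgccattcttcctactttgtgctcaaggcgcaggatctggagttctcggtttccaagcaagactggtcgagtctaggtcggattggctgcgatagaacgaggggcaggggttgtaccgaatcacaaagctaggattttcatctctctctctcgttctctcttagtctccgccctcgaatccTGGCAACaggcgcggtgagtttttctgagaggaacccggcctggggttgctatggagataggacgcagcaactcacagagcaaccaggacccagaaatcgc

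Interferon-stimulated genes were nearly all on 1 side. Of 63 tested, 59 were higher in siTLE3 than in siFOXA1 libraries, 3 were not called (IFITM2, BST2 and TAP2) and GBP2 was lower (-0.94), with a median log2 fold change of 1.45. OAS2, a double-stranded RNA sensor, was at 722, 879 and 505 CPM in siTLE3 libraries, against 181, 63.4 and 108 CPM in siFOXA1 libraries and 871, 494 and 1160 CPM in siNS libraries (direct 2.58, SE 0.31, adjusted p = 3.13e-05). The siTLE3 and siFOXA1 libraries did not overlap, while siTLE3 and siNS did. CMPK2, a mitochondrial nucleotide kinase induced by interferon, was at 25.4, 30.0 and 19.1 CPM against 3.79, 1.39 and 2.35 CPM (3.31, SE 0.26). IFI44L was at 18, 23.2 and 13.2 CPM against 4.52, 1.43 and 3.01 CPM (2.61, SE 0.30), and RTP4, a receptor transport protein, had a log2 fold change of 3.00 (SE 0.38).

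The summed level of the interferon-stimulated genes was 12740, 15300 and 10330 CPM in siTLE3 libraries 1, 3 and 4, against 6129, 3211 and 5015 CPM in siFOXA1 libraries 1, 2 and 3 and 16400, 9965 and 20440 CPM in siNS libraries 2, 3 and 4. The lowest siTLE3 library was thus above the highest siFOXA1 library, and the siNS libraries spanned the siTLE3 ones. Over siNS, 5 of 63 were called higher and 11 lower under siTLE3, where 26.4% of 15821 genes were called higher and 25.6% lower. Under siFOXA1, 1 of 62 was called higher and 57 lower, where 26.0% of 15553 genes were called higher and 26.8% lower. These last comparisons share their siNS libraries. Across all alternatives run, 53 to 59 interferon genes were called higher and 1 lower in the direct comparison.

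Antigen presentation genes, which interferon also induces, were higher in 10 of 21 tested, lower in 1 (CANX) and not called in 10. PSMB9, an immunoproteasome subunit, was at 25.0, 29.5 and 27.2 CPM in siTLE3 libraries and 7.30, 4.90 and 7.57 CPM in siFOXA1 libraries (2.05, SE 0.15). TAP1, a peptide transporter, was at 150, 181 and 126 CPM against 85.5, 76.3 and 82.6 CPM (0.90, SE 0.12). Its hg19 span lies within that of PSMB9 on the opposite strand, so without strand some reads of this pair cannot be told apart. Of 24 tested genes of the NF-kB and inflammatory list, 13 were higher and 3 lower. BIRC3, an inhibitor of apoptosis, was at 32.5 to 42.4 CPM against 9.72 to 11.2 CPM (1.79, SE 0.12), and TNFAIP3, a feedback inhibitor of NF-kB, at 7.93 to 10.5 CPM against 2.68 to 3.90 CPM (1.49, SE 0.18).

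The core of the interferon-stimulated response element, written here as 2 runs of GAAA with any 2 bases between them, was present on either strand in 33 of 50 matched interferon-stimulated promoters (66.0%), against 996 of all 27305 (3.65%). In the antigen presentation list it was in 9 of 18 (50%). Promoters of the named members that hold it are shown in the same windows, with the word in capitals. They are IFI44L at chr1:78620198-78620497 and RTP4 at chr3:187368135-187368434, both on the plus strand, and TAP1 at chr6:32853655-32853954 on the minus strand. The TAP1 window holds 2 overlapping words in the reverse orientation.
IFI44L: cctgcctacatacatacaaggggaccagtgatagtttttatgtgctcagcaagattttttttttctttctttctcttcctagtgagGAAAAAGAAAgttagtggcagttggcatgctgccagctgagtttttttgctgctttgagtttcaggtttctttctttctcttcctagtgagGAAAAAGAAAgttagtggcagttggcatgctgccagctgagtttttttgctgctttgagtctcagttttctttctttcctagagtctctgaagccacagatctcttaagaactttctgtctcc
RTP4: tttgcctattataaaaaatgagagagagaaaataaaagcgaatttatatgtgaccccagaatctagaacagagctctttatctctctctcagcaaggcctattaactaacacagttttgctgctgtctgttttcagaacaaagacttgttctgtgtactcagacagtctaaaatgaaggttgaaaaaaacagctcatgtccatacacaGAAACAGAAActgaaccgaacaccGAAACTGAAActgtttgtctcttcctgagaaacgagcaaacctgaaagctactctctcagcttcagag
TAP1: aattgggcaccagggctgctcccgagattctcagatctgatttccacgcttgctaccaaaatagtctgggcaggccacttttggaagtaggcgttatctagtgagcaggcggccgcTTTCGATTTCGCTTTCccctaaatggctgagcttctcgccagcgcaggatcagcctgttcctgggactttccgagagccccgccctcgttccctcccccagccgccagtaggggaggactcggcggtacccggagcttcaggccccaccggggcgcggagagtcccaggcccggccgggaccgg

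DNA replication and E2F genes were higher under siTLE3 almost throughout, in 45 of 47 tested, with a median log2 fold change of 0.77. The exceptions were RFC5 (-0.23) and ORC6, which was not called. E2F7 and E2F2, members of the E2F family of cell cycle factors, had the largest differences. E2F2 was at 24.8, 24.5 and 25.0 CPM in siTLE3 libraries, against 8.16, 6.75 and 8.19 CPM in siFOXA1 libraries and 20.4 to 23.2 CPM in siNS libraries (1.69, SE 0.11, adjusted p = 1.69e-07). E2F7 was at 48.9 to 56.4 CPM against 13.6 to 17.9 CPM, with 13.9 to 17.5 CPM in siNS libraries (1.71, SE 0.11), so here siFOXA1 lay at the control. TK1, thymidine kinase, was at 172, 173 and 205 CPM against 63.9, 66.6 and 84.4 CPM (1.36, SE 0.11), and GINS4, part of the replicative helicase, at 22.3 to 22.7 against 7.43 to 8.67 CPM (1.48, SE 0.10).

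Mitotic genes had a smaller median difference. Of 43 tested, 26 were higher, 16 were not called and ANLN was lower (-0.36), with a median of 0.30. CDK1, the mitotic kinase, was at 169, 175 and 202 CPM in siTLE3 libraries and 92.9, 108 and 115 CPM in siFOXA1 libraries (0.79, SE 0.10). CENPE, a kinetochore motor, differed by 0.77 (SE 0.11) and ESPL1, separase, by 0.71 (SE 0.09). Over siNS, 21 of 47 replication genes were called higher and 6 lower under siTLE3, while 40 of 47 were called lower and 0 higher under siFOXA1. For mitotic genes 30 of 43 were called lower and 1 higher under siTLE3, and 41 lower and 0 higher under siFOXA1. Over all genes 26.4% were called higher and 25.6% lower than siNS under siTLE3, and 26.0% and 26.8% under siFOXA1. Of 37 tested genes of the list of G1 cyclins, CDK inhibitors and p53 targets, 8 were higher and 13 lower, with 16 not called. Over all genes 22.5% were higher and 21.8% lower in the direct comparison. PMAIP1 was among the higher ones, at 10.4, 11.3 and 7.98 CPM in siTLE3 libraries and 4.52, 2.96 and 5.22 CPM in siFOXA1 libraries (1.23, SE 0.20). Among the lower ones, GADD45A was at 4.25, 4.49 and 5.23 CPM in siTLE3 libraries and 24.4, 23.2 and 26.6 CPM in siFOXA1 libraries (-2.41, SE 0.12), and CDKN2B, an inhibitor of CDK4 and CDK6, differed by -1.62 (SE 0.10).

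The E2F words TTTGGCGC and TTTCCCGC, searched on both strands, were present in 19 of 39 matched promoters of the replication list (48.7%), in 2 of 36 of the mitosis list (5.56%) and in 631 of all 27305 (2.31%). The promoter of E2F2 is shown because E2F2 was among the largest differences and its window holds a word, at chr1:23531184-23531483 on the minus strand with the word in capitals.
E2F2: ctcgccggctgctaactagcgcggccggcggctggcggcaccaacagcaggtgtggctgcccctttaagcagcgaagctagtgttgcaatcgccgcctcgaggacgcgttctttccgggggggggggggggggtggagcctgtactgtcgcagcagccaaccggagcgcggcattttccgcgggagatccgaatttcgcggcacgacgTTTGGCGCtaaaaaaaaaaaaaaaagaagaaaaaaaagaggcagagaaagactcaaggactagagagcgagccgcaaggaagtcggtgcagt

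**Figure D3:**
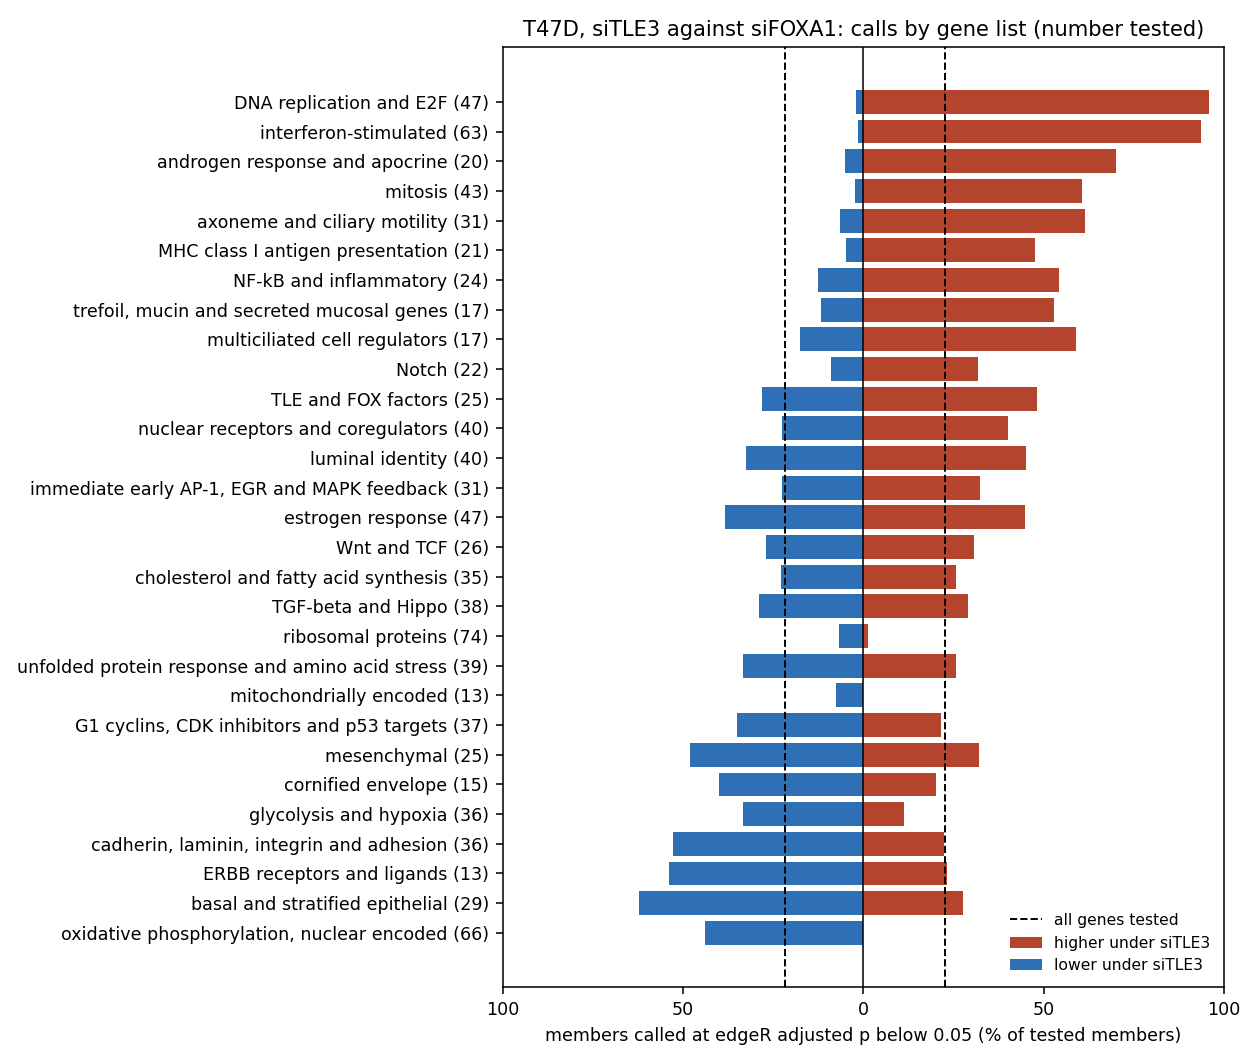
Share of tested members called at an edgeR adjusted p below 0.05 in T47D, siTLE3 against siFOXA1, for gene lists with at least 10 tested members (number tested in brackets), with higher in red to the right and lower in blue to the left. Dashed lines mark 22.5% and 21.8%, the shares over all 16053 genes, and replication and interferon-stimulated genes reach farthest right while basal genes reach farthest left.

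Genes of basal and stratified epithelium were lower in 18 of 29 tested, higher in 8 and not called in 3 (ITGB4, KRT17 and S100A2), with a median of -0.57. KRT4, described above, was among the higher members (7.10, SE 0.23). KRT16, a keratin of activated epidermis, was at 0.975, 1.97 and 2.69 CPM in siTLE3 libraries, against 12.1, 15.8 and 14.3 CPM in siFOXA1 libraries and 0.368 to 0.839 CPM in siNS libraries (-2.92, SE 0.25, adjusted p = 1.96e-06). The kallikreins KLK5 and KLK7, neighbours on chromosome 19, differed by -3.11 (SE 0.26) and -4.39 (SE 0.51), and the basal factor TP63 by -2.73 (SE 0.27). TP63 was at 0.476 to 0.975 CPM against 4.10 to 5.13 CPM. Over siNS, 14 of 25 members were called higher and 1 lower under siTLE3, and 20 of 26 were called higher and 2 lower under siFOXA1. The shares over all genes were 26.4% higher and 25.6% lower under siTLE3, and 26.0% and 26.8% under siFOXA1. Of the cornified envelope list 6 of 15 were lower and 3 higher. The lower ones included S100A9 at 5.09 to 9.46 against 39.1 to 49.1 CPM (-2.62, SE 0.17) and IVL, involucrin, at 25.5 to 32.5 against 69.6 to 77.9 CPM (-1.34, SE 0.10). SPRR1A was among the higher ones, at 1.69 to 2.48 against 0.502 to 0.706 CPM (1.805, SE 0.31).

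Adhesion genes were lower in 19 of 36 tested and higher in 8 (median -0.46). Besides L1CAM, ITGB6, an epithelial integrin subunit, was at 2.96 to 3.94 CPM in siTLE3 libraries and 15.8 to 20.1 CPM in siFOXA1 libraries (-2.29, SE 0.15). CDH13, a cadherin anchored in the outer membrane leaflet, ran the other way at 2.61 to 4.68 against 0.365 to 0.659 CPM, with 7.41 to 8.15 CPM in siNS libraries. Of 25 mesenchymal genes tested 12 were lower and 8 higher. SNAI2, a repressor of epithelial genes, was at 0.423 to 0.664 CPM against 2.87 to 3.15 CPM (-2.37, SE 0.28), and the matrix protein TNC at 1.33 to 2.32 against 9.5 to 16.0 CPM (-2.73, SE 0.24). COL1A2 was called (-2.40, SE 0.79), but its 3 siFOXA1 libraries had 0.365, 1.39 and 4.75 CPM, the groups overlapped, and without siFOXA1 3 its adjusted p was 0.213.

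Signalling genes went both ways. LEF1, a Wnt-responsive factor, was at 13.6, 16.4 and 12.8 CPM in siTLE3 libraries and 3.42, 3.10 and 3.39 CPM in siFOXA1 libraries (2.12, SE 0.15), while FZD7, a Wnt receptor, was at 11.4 to 12 against 34.1 to 36.8 CPM (-1.59, SE 0.09). The Wnt list had 8 higher and 7 lower of 26, beside 22.5% higher and 21.8% lower over all genes. ADM, the vasodilator peptide adrenomedullin, was at 92.7, 105 and 99.1 CPM against 9.99, 8.79 and 11.1 CPM, with 14.1 to 18.4 CPM in siNS libraries (3.32, SE 0.10, adjusted p = 9.52e-10). DLL1, a Notch ligand, differed by 1.74 (SE 0.15). Of 13 ERBB receptors and ligands tested 7 were lower and 3 higher, with TGFA at 19.9 to 21.8 against 45.1 to 47.8 CPM (-1.16, SE 0.08) and EREG at 4.56 to 5.65 against 1.13 to 1.62 CPM (1.82, SE 0.22). NR5A2, an orphan nuclear receptor, was at 19.4 to 21.3 against 4.85 to 5.20 CPM (2.00, SE 0.11).

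Nuclear-encoded subunits of oxidative phosphorylation were lower in 29 of 66 tested and higher in 0 (median -0.22), with 17 to 46 called lower across the alternatives. ATP5B, the catalytic beta subunit of ATP synthase, was at 1040, 1050 and 1180 CPM in siTLE3 libraries and 1750, 1790 and 2000 CPM in siFOXA1 libraries (-0.76, SE 0.09). Of 74 ribosomal protein genes 5 were lower and 1 was higher, beside 44.3% called over all genes, and 3 to 47 were lower across the alternatives. Many of them have processed pseudogenes with which reads may be shared.

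**Figure D4:**
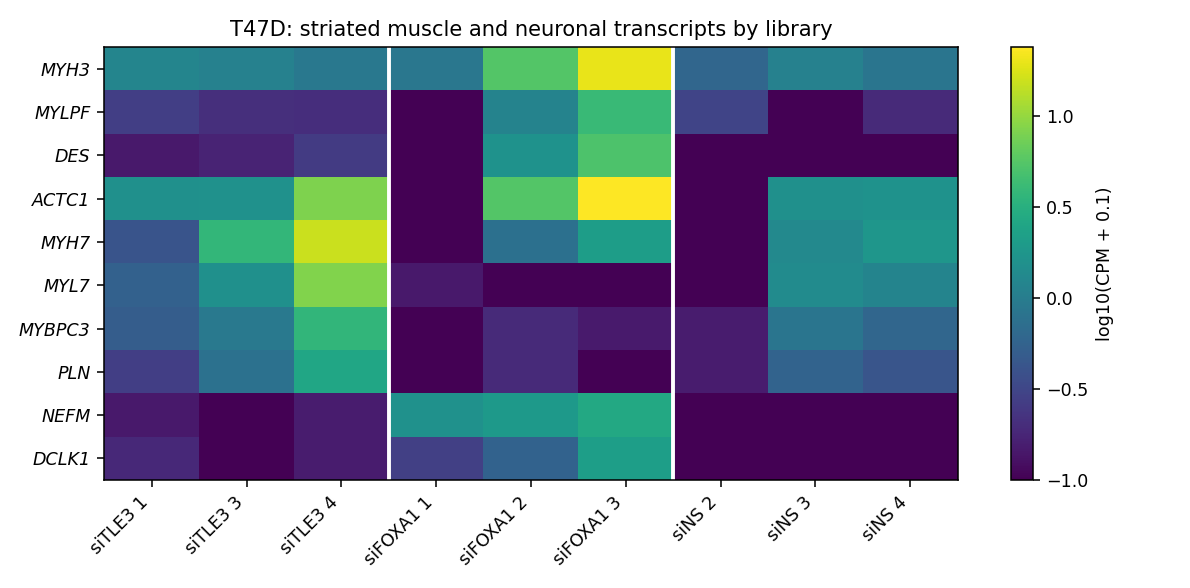
Level of 10 striated muscle and neuronal transcripts in the 9 T47D libraries, in the order siTLE3, siFOXA1 and siNS, with colour as log10(CPM + 0.1). MYH3, MYLPF, DES, ACTC1 and DCLK1 are highest in siFOXA1 3, MYH7, MYL7, MYBPC3 and PLN in siTLE3 4, and NEFM in the 3 siFOXA1 libraries.

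Striated muscle and neuronal transcripts varied between libraries of 1 group. Lists of skeletal muscle, cardiac muscle and neuronal genes were added after these values were seen. The skeletal muscle list summed to 17.2, 18.6 and 29.1 CPM in siTLE3 libraries 1, 3 and 4, against 18.4, 31.4 and 87.7 CPM in siFOXA1 libraries 1, 2 and 3 and 8.55 to 9.65 CPM in siNS libraries. MYH3, embryonic myosin, was at 0.793 to 1.11 CPM in siTLE3 libraries and 0.775, 5.37 and 19.9 CPM in siFOXA1 libraries. The cardiac list summed to 23.8, 33.0 and 77.0 CPM in siTLE3 libraries and 15.4, 23.7 and 56.7 CPM in siFOXA1 libraries. In siNS libraries it summed to 17.2, 28.2 and 24.7 CPM. ACTC1, at 0, 5.37 and 23.7 CPM in siFOXA1 libraries, is in both muscle lists, so the sums are not separate. In siFOXA1 libraries TNNT2 also rose, from 0.137 to 5.55 CPM, while MYL7, MYBPC3 and PLN stayed at or below 0.0925 CPM. MYH7, the slow cardiac myosin, was at 0.31, 3.64 and 15.2 CPM in siTLE3 libraries, and at 0 to 2.02 CPM in siFOXA1 libraries, so siTLE3 4 stood far above the rest. The neuronal genes differed among themselves. NEFM, a neurofilament, was at 1.51, 1.85 and 2.63 CPM in the siFOXA1 libraries and at or below 0.0528 CPM in siTLE3 and siNS libraries. In siFOXA1 libraries 1, 2 and 3, DCLK1 was at 0.182, 0.463 and 2.07 CPM and NCAM1 at 0.456, 1.2 and 2.96 CPM. MAP2 and TUBB3 instead fell across them, MAP2 from 60.8 to 47.4 CPM and TUBB3 from 3.37 to 2.31 CPM. SYT1 stayed at 15.4 to 15.9 CPM. The part of these transcripts in the results above was not tested. The count of calls was as large without siTLE3 4 and siFOXA1 3. That count does not measure their part, since siFOXA1 2 still held MYH3 and ACTC1 at 5.37 CPM each.

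The same comparison was run in both other lines, which have libraries of their own. In MDA-MB-453 7688 of 14484 genes were called (53.1%), with 27.0% higher and 26.1% lower. In SKBR3, which carries an amplified ERBB2 gene, 2836 of 14195 were called (20%), with 10.7% higher and 9.24% lower. The SKBR3 count depended on single libraries and rose to 5732 without siTLE3 1. It was 1336 to 1393 when 1 siFOXA1 library was left out and 1757 without siTLE3 2. Chi-square per degree of freedom was 42.0 and 56.3 for the pairs that held SKBR3 siTLE3 1, against 6.92 for the other pair. Of the 1202 genes at least 2-fold higher in T47D, 775 were tested in MDA-MB-453, where 54.6% were called in the same direction, 13.7% in the opposite one and 31.7% not at all. In SKBR3, 689 were tested, with 41.4% in the same direction and 5.37% in the opposite one. Of the 665 genes at least 2-fold lower, 73.3% of 435 were lower in MDA-MB-453 too and 45.8% of 465 in SKBR3. AGR2, CREB3L1 and XBP1 were called higher in all 3 lines. The log2 fold changes for AGR2 were 3.31 in T47D, 3.99 in MDA-MB-453 and 2.87 in SKBR3. FOXA1 was also called higher in all 3, but it is the gene that siFOXA1 targets in each.

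The line-by-siRNA contrast tested where T47D stood apart. The difference between siTLE3 and siFOXA1 was unlike that of MDA-MB-453 in 4771 of 16157 genes (29.5%), with a higher value in T47D in 15% and a lower one in 14.6%. It was unlike that of SKBR3 in 2881 of 16097 genes (17.9%), with 8.49% higher and 9.41% lower. Interferon-stimulated genes were higher in T47D than in MDA-MB-453 in 58 of 63 tested and lower in 0, and higher than in SKBR3 in 12 of 56. Within MDA-MB-453 31 of 60 interferon genes were lower under siTLE3 and 5 were higher, with 21 to 39 lower and 2 to 13 higher across the alternatives. The cell cycle lists separated T47D from SKBR3. All 47 replication genes and 40 of 43 mitotic genes had a higher value in T47D than in SKBR3, and none had a lower one. Within SKBR3 29 of 47 replication and 28 of 43 mitotic genes were lower under siTLE3 and 0 were higher, with 11 to 40 and 10 to 38 lower across the alternatives. Against MDA-MB-453, 29 of 43 mitotic genes had a lower value in T47D, where all 43 were higher under siTLE3 in MDA-MB-453 and 26 in T47D.

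**Figure D5:**
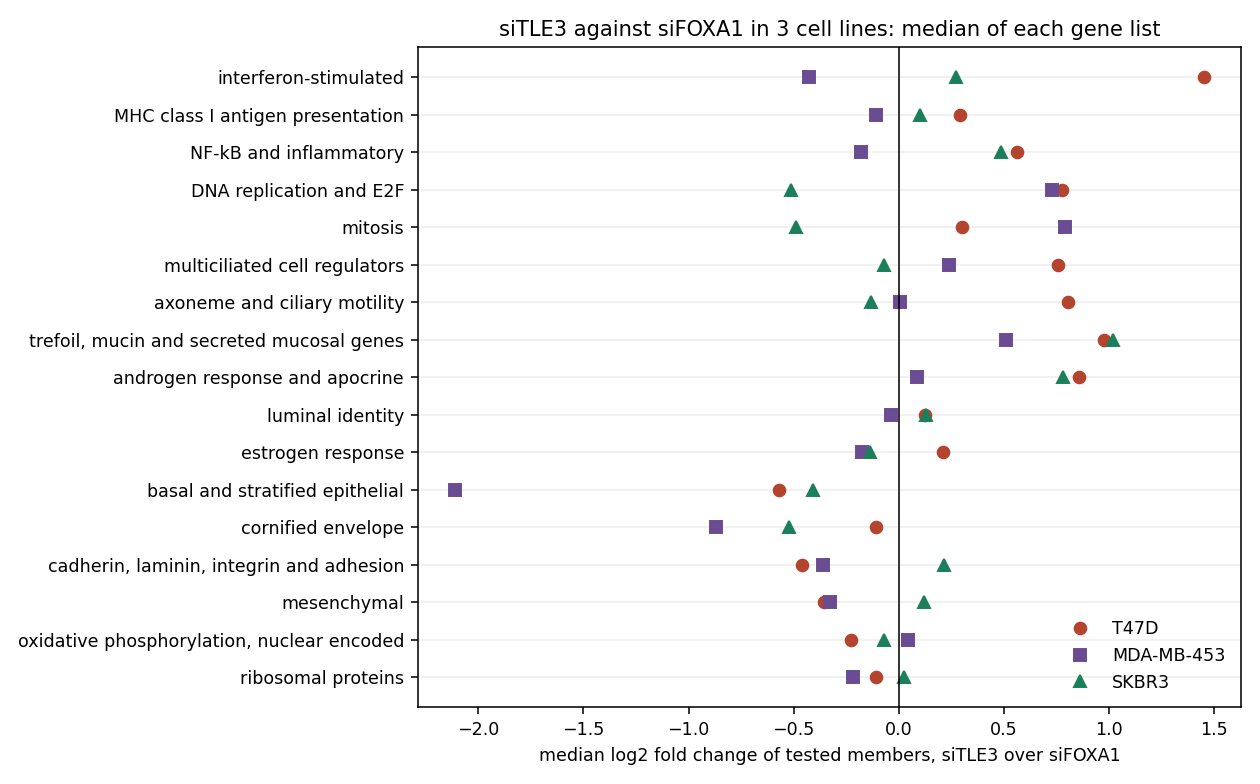
Median log2 fold change of siTLE3 over siFOXA1 over the tested members of 17 gene lists in T47D (red circles), MDA-MB-453 (purple squares) and SKBR3 (green triangles). Replication genes sit right of 0 in T47D and MDA-MB-453 and left of 0 in SKBR3, and interferon-stimulated genes lie at 1.45 in T47D and left of 0 in MDA-MB-453.

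Single genes showed line differences larger than the list medians. ADRA2A, the alpha-2A adrenergic receptor, was at 32.9, 36.6 and 34.4 CPM in siTLE3 libraries of T47D, against 11.8, 10.6 and 10.9 CPM in siFOXA1 libraries of T47D. In MDA-MB-453 it was at 0.229 to 0.566 CPM under siTLE3 and 18.5 to 22.8 CPM under siFOXA1, so the directions were opposite (difference of log2 fold changes 7.47, SE 0.22, edgeR adjusted p = 7.3e-14). SOX9, a progenitor cell factor, was higher under siTLE3 in T47D (0.93) and lower in MDA-MB-453 (-2.13). GDF15, a stress-induced cytokine, overlapped between the T47D groups at 16.0 to 18.1 and 16.0 to 21.7 CPM, but in MDA-MB-453 it was at 183 to 205 CPM under siTLE3 and 4.34 to 5.28 CPM under siFOXA1 (difference -5.49, SE 0.15). KITLG, the ligand of the KIT receptor, and the potassium channel gene KCNK2 were lower under siTLE3 in T47D (-1.36 and -1.63) and higher in MDA-MB-453 (1.43 each).

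Against SKBR3, CADM1, a cell adhesion molecule, was at 181 to 190 CPM under siTLE3 and 52.8 to 55.0 CPM under siFOXA1 in T47D, and at 39.5 to 46.0 and 74.6 to 75.8 CPM in SKBR3 (difference 2.57, SE 0.13, adjusted p = 1.51e-09). VTCN1, an immune checkpoint ligand, was at 105, 118 and 111 CPM under siTLE3 and 209, 226 and 235 CPM under siFOXA1 in T47D, and at 273 to 301 and 83.5 to 94.3 CPM in SKBR3 (difference -2.70, SE 0.13). CRAT, carnitine acetyltransferase, and NEDD4L, a ubiquitin ligase, also had opposite signs in these lines. ATP8B2, a phospholipid flippase, differed by -0.32 (SE 0.09) in T47D and was higher under siTLE3 in SKBR3 (3.63), with an adjusted p of 1.51e-09 for the difference.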

How the data were processed

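RNA sequencing read counts per gene were taken from the tables the authors deposited, 1 per silencing and line. The build was hg19 and the tools named are HTSeq 0.6.1, STAR 2.5 and DESeq2, per the submitters' processing notes. Settings and strand are not given in the sources used here. The T47D siTLE3 and siFOXA1 tables were joined on gene identifier. The counts were tested with edgeR 4.0.16 in R 4.3.3, with TMM scaling, its default low-count filter, the quasi-likelihood test and Benjamini-Hochberg adjustment over all genes tested, with siTLE3 and siFOXA1 libraries alone in the fit. CPM uses the TMM factors of the 9 T47D libraries. Line differences were tested as line-by-siRNA contrasts. The fit was tested on simulated data. siTLE3 and siNS columns carry numbers other than those of the titles and were assigned to their group without a replicate number.

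Genes named are TLE3, FOXA1 and their families with receptor and luminal genes, and the 10 largest differences per direction among protein-coding genes (at least 5 CPM in the higher group, no overlap). They also include the 5 per direction at a mean of at least 100 CPM, 3 non-coding genes per direction and up to 4 called members per list. For each line difference the 4 genes per direction with the smallest p were named. Some genes that these rules select are not reported here. The members and lists were chosen with earlier results of these data known. Alternatives were DESeq2 1.42.0, its size factors, no low-count filter, genes of either table, all 9 libraries, a replicate block and leaving out libraries.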

Additional observations from a re-analysis of the deposited data

Results flagged for a closer look

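Several differences between siTLE3 and siFOXA1 depended on the cell line by the edgeR line-by-siRNA contrast. Of 63 interferon-stimulated genes tested, 58 had a higher value in T47D than in MDA-MB-453. Of 43 mitotic genes tested, 29 had a lower value in T47D than in MDA-MB-453. Over all genes of that contrast 15% were higher and 14.6% lower. All 47 replication genes tested, and 40 of 43 mitotic genes, had a higher value in T47D than in SKBR3. Over all genes of the SKBR3 contrast 8.49% were higher and 9.41% lower.

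Against MDA-MB-453, the log2 fold change in T47D was higher by 7.47 for ADRA2A, 3.07 for MYB, 3.20 for ASS1 and 3.08 for SOX9. The difference was -5.49 for GDF15, -3.05 for KCNK2, -2.78 for KITLG and -2.42 for MBOAT2. Against SKBR3, it was higher by 2.57 for CADM1, 2.29 for C9orf152 and 2.19 for CRAT. The difference was -3.95 for ATP8B2, -2.70 for VTCN1, -3.30 for FAM83A and -2.23 for NEDD4L.

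Genes listed in 1 T47D table alone were outside the direct comparison. In siTLE3 libraries HPSE2 averaged 12.7 CPM against 1.23 CPM in siNS libraries, and FOXN4, a forkhead factor, averaged 4.28 CPM against 0.1 CPM. RP11-364P22.1 averaged 2.70 CPM and RP1 2.65 CPM under siTLE3. In siFOXA1 libraries MYH8, a skeletal myosin, averaged 3.28 CPM, DCX 1.90 CPM, NEFL 1.67 CPM and MYL1 1.03 CPM, while all 4 were at 0 in siNS libraries. MYH8 was at 0.045, 1.56 and 8.23 CPM in siFOXA1 libraries 1, 2 and 3, so its mean rests mainly on siFOXA1 3.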

How the results depend on the processing

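The direct count of 7119 genes was 7132 with DESeq2's size factors, 7041 without a low-count filter, 6706 with DESeq2, 7143 with genes of either table and 7597 with all 9 libraries. Leaving out 1 library gave 5787 to 6964 in T47D, 7064 to 7322 in MDA-MB-453 and 1336 to 5732 in SKBR3. It gave 7172 to 8417 for siTLE3 and 7189 to 8776 for siFOXA1 against siNS, and 4106 to 4889 and 2200 to 3806 for the T47D differences from MDA-MB-453 and SKBR3. In SKBR3 5732 genes were called without siTLE3 1 and 1757 without siTLE3 2. Without siFOXA1 1, 2 or 3 the SKBR3 counts were 1349, 1393 and 1336, and the cause was not tested. List members called, each gene counted once, numbered 555, and 487 to 567 without 1 library. Members were chosen with earlier results known and 44.3% of all genes were called, so these counts show only how calls change between settings.

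With a replicate block 7480 genes were called. Same-numbered T47D libraries correlated at 0.201 and 0.0419 in their deviations from the group means, and the other pairs at -0.3 to 0.261. With 3 libraries per group these values cannot decide whether the numbers pair the samples. Direction was checked for 152 named genes and 16 line difference genes, and none reversed under any alternative run. Most were named for a large or called difference in these same libraries, so a reversal was unlikely from the start. Genes named only as cell type markers or as muscle and neuronal genes were outside this check. Of the 152 named genes 151 were called, and 144 of these kept their call under every alternative. GATA3, TLE2, COL1A2, MT-CO2, MAML2, AQP11 and ATP8B2 lost it under at least 1 alternative. The 3 libraries per group limit precision for genes of few reads.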
